A study of Oryza sativa Japonica Group with 6 samples.

Results

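The 10 expansin genes described here are 7 alpha-expansins and 3 beta-expansins of rice, chosen by their locus identifiers out of the 42189 genes listed in the deposited table. The alpha-expansins are *OsEXPA2* (LOC_Os01g60770), *OsEXPA4* (LOC_Os05g39990), *OsEXPA5* (LOC_Os02g51040), *OsEXPA7* (LOC_Os03g60720), *OsEXPA8* (LOC_Os01g14650), *OsEXPA10* (LOC_Os04g49410) and *OsEXPA16* (LOC_Os06g41700). The beta-expansins are *OsEXPB2* (LOC_Os10g40710), *OsEXPB3* (LOC_Os10g40720) and LOC_Os03g01610, which is called by its identifier. The gene names came with the choice of the genes and are not in the deposited table. By these identifiers *OsEXPA2* and *OsEXPA8* are on chromosome 1, *OsEXPA5* on 2, *OsEXPA7* and LOC_Os03g01610 on 3, *OsEXPA10* on 4, *OsEXPA4* on 5, *OsEXPA16* on 6, and *OsEXPB2* and *OsEXPB3* on 10. A RefSeq gene table of rice holds 9 of the 10 as names, each on the chromosome that the identifier gives, among 44 genes that it names as *EXPA* or *EXPB*.

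Young panicles were taken before heading from NIL-*hfr131* and from its recipient parent 187R, with 3 RNA-seq libraries per line, and no treatment was applied to either. NIL-*hfr131* carries *hfr131*, an allele of the brassinosteroid (BR) receptor gene *OsBRI1*, on a fragment of chromosome 1 from the wild rice *Oryza longistaminata*, and 187R carries the *HFR131* allele in the same background. The labels give both lines as *Oryza sativa* Japonica Group, whereas the study describes 187R as an *indica* restorer, and NIL-*hfr131* is a single near-isogenic line, so that effects of the allele and of other genes on the fragment cannot be told apart. The labels call the libraries biological replicates, and whole panicles hold many cell types, so fewer cells of a type and less RNA per cell cannot be told apart.

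Expansins are small proteins of the plant cell wall that loosen it without cutting its polymers, and a wall loosened in this way yields to turgor, so that the cell can elongate. Alpha-expansins act best in the acid walls of growing cells, and the beta-expansins, which are numerous in grasses, include the group of pollen allergens of grass pollen. BR promotes cell elongation, and expansin genes are among the genes it is known to induce in several plants. The comparison asks whether the expansin genes differed in level between its panicles and those of 187R.

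Levels are given in TPM, the number of transcripts of a gene per 1000000 transcripts after correction for gene length, so that levels of different genes can be set side by side. The values summed to 1000000 in every library, and the sequencing depth is unknown. The lines were compared with limma on log2(TPM + 1) over the 21531 genes with a mean of at least 1 TPM, in two-sided tests adjusted by the Benjamini-Hochberg method. Log2 fold changes are NIL-*hfr131* over 187R. Of the 10 expansin genes, 7 were tested, and the other 3 were below the minimum.

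NIL-*hfr131* replicate 3 was the library least like the rest. Across tested genes its log2 values correlated with those of the other libraries at 0.916 to 0.937, against 0.982 to 0.991 among the other 5. Set against the mean of the remaining 5 libraries, 13.5% of tested genes and 0 of the 7 expansin genes deviated in it by over 1 log2 unit. With only 7 genes, a count of 0 does not set them apart from that share. The deviations of the expansin genes ran from -0.25 (*OsEXPA10*) to 0.57 (*OsEXPA2*). As loci that should be active in panicles, 10 floral organ identity loci were listed from general knowledge, since the table pairs no names with identifiers. All 10 were above the minimum and 0 of them passed an adjusted p under 0.05 (limma), beside 0.307% of all tested genes. At an unadjusted p under 0.05, 0 passed, beside 8.36% of all tested genes. Of 5 meiosis loci, 0 passed the adjusted threshold. Unadjusted, 1 of the 5 was lower in NIL-*hfr131*, beside 4.31% of all tested genes. With so few loci, these counts do not set either list apart from those shares.

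**Figure D1:**
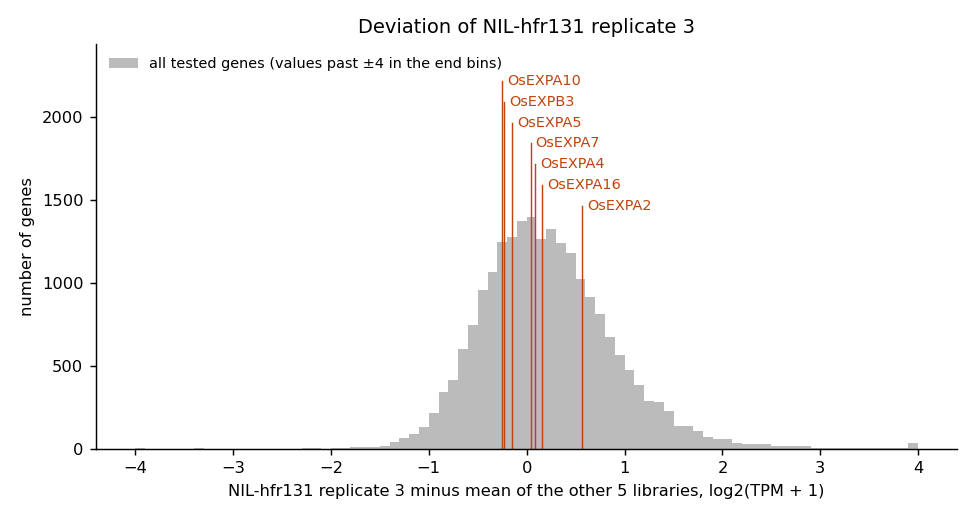
Histogram of the deviation of NIL-*hfr131* replicate 3 from the mean of the other 5 libraries on the log2(TPM + 1) scale for 21531 tested genes (grey bars, number of genes), with a red line for each of the 7 tested expansin genes. The expansin genes lie between -0.25 and 0.57, and 13.5% of all tested genes lie beyond 1 in either direction.

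The expansin genes fell into 7 that were well expressed and 3 that were near or at 0, in both lines alike. *OsEXPB3* had the highest level of the 10, with means of 866 ± 96.8 TPM for NIL-*hfr131* and 857 ± 29.7 TPM for 187R (SD, n = 3 libraries per line), and it ranked 103 among all listed genes by its mean over the 6 libraries. *OsEXPA7* followed with means of 307 ± 12.3 TPM for NIL-*hfr131* and 319 ± 34.3 TPM for 187R. The lowest of the 7 was *OsEXPA5*, whose mean over the 6 libraries was 54.8 TPM and was still higher than that of 91.3% of listed genes.

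The order of the levels was the same in both lines for the top 3 genes, *OsEXPB3*, *OsEXPA7* and *OsEXPA4*, and the ranges of neighbours in that order did not overlap within a line. In NIL-*hfr131* the order went on with *OsEXPA16*, *OsEXPA10*, *OsEXPA2* and *OsEXPA5*, and the ranges overlapped only between *OsEXPA10* and *OsEXPA2*. In 187R it went on with *OsEXPA10*, *OsEXPA16*, *OsEXPA2* and *OsEXPA5*, and the ranges overlapped only between *OsEXPA10* and *OsEXPA16*. *OsEXPA2* was below *OsEXPA10* in every library of 187R and in NIL-*hfr131* replicates 1 and 2. Only in NIL-*hfr131* replicate 3 was it above, at 131.67 against 108.43 TPM.

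The summed level of the 10 genes hardly differed between the lines. It was 1823, 1779 and 1687 TPM in NIL-*hfr131* replicates 1, 2 and 3, and 1704, 1782 and 1748 TPM in 187R replicates 1, 2 and 3, about 0.176% of all transcripts in NIL-*hfr131* and 0.174% in 187R. Alpha-expansins made up 51.0% ± 3.75 of this sum in NIL-*hfr131* and 50.8% ± 2.80 in 187R (SD, n = 3). The rest came almost wholly from *OsEXPB3*, whose share was 49.0% ± 3.75 in NIL-*hfr131* and 49.2% ± 2.80 in 187R.

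**Figure D2:**
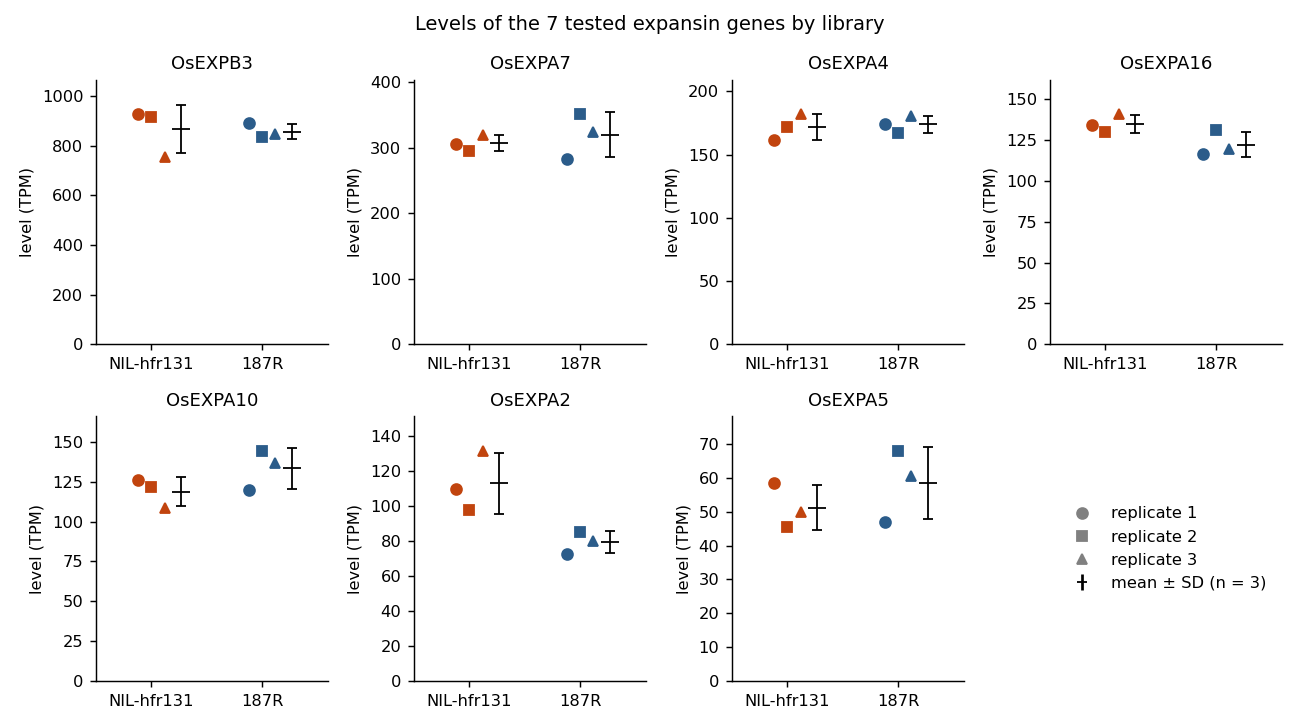
Level in TPM (vertical axes from 0) of the 7 tested expansin genes, with NIL-*hfr131* in red on the left of each panel and 187R in blue on the right, a marker shape per replicate and the mean ± SD of 3 libraries in black. In the panel of *OsEXPA2* every NIL-*hfr131* library (97.7 to 131.7 TPM) lies above every 187R library (72.9 to 85.4 TPM), and in the other 6 panels the lines overlap.

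None of the 7 tested expansin genes (0 of 7) passed an adjusted p under 0.05 in limma, where 0.307% of all tested genes passed, 0.251% with a higher and 0.0557% with a lower level in NIL-*hfr131*. Without NIL-*hfr131* replicate 3 the count was again 0 of 7, where 1.80% of all tested genes passed. With no adjustment, 1 of the 7 had a p under 0.05, *OsEXPA2*, which was higher in NIL-*hfr131*, against 8.36% of all tested genes (4.05% higher and 4.31% lower). This gene was also the 1 of 7 in which every library of one line lay above every library of the other, as 18.5% of all tested genes did (8.59% higher and 9.96% lower in NIL-*hfr131*). Of the 7 log2 fold changes, 3 were positive and 4 negative, and their median was -0.02, beside a median of 0.05 over all tested genes. With 1 gene of 7 standing against these shares, nothing sets the list apart from the other genes, and the interval of each gene gives the sizes of difference that remain possible.

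Among the alpha-expansins, *OsEXPA2*, which is known from growing tissue of deepwater rice, had the largest absolute log2 fold change of the 7 tested genes. It was at 109.8, 97.7 and 131.7 TPM in NIL-*hfr131* replicates 1, 2 and 3, against 72.9, 85.4 and 79.9 TPM in 187R replicates 1, 2 and 3. All 3 NIL-*hfr131* libraries were above all 3 of 187R, with the highest level in NIL-*hfr131* replicate 3. The means were 113 ± 17.2 TPM in NIL-*hfr131* and 79.4 ± 6.28 TPM in 187R (SD, n = 3), a ratio of 1.42. The log2 fold change was 0.50 ± 0.142 (standard error), its 95% interval ran from 0.16 to 0.83, and 10.8% of tested genes had a larger absolute log2 fold change. It did not pass the threshold (unadjusted p = 0.0102, adjusted p = 0.392, limma), and an exact permutation test of 3 against 3 libraries gave p = 0.1 (two-sided), the smallest it can give. Without NIL-*hfr131* replicate 3 the log2 fold change was 0.38 (adjusted p = 0.127, limma), and the adjusted p ranged from 0.127 to 0.904 over the alternatives.

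As a description that does not depend on how the libraries were scaled, the level of *OsEXPA2* was also set against the other expansin genes within each library. *OsEXPA2* made up 12.3%, 11.3% and 14.1% of the summed alpha-expansin level in NIL-*hfr131* replicates 1, 2 and 3, against 8.97%, 9.02% and 8.87% in 187R replicates 1, 2 and 3. The share in 187R varied little, with an SD of 0.0764 percentage points, and every NIL-*hfr131* library lay above it. The ratio of *OsEXPA2* to *OsEXPA7* was 0.359, 0.331 and 0.412 in NIL-*hfr131* and 0.258, 0.244 and 0.246 in 187R. The ratio to *OsEXPA10* was 0.870, 0.804 and 1.21 in NIL-*hfr131* and 0.610, 0.592 and 0.586 in 187R. Ratios to *OsEXPA4*, *OsEXPA5*, *OsEXPA16* and *OsEXPB3* were likewise higher in every NIL-*hfr131* library than in every 187R library. The shares of *OsEXPA16* were also higher in every NIL-*hfr131* library (15.0%, 15.1% and 15.1%, against 14.3%, 13.9% and 13.3% in 187R), and those of *OsEXPA7* and *OsEXPA10* lower, at 34.1% to 34.3% for *OsEXPA7* in NIL-*hfr131* against 34.8% to 37.0% in 187R. These ratios all rest on the same *OsEXPA2* values, so they are not separate observations. They were examined after the values of *OsEXPA2* had been seen and were not tested, and *OsEXPA2* itself did not pass the threshold.

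**Figure D3:**
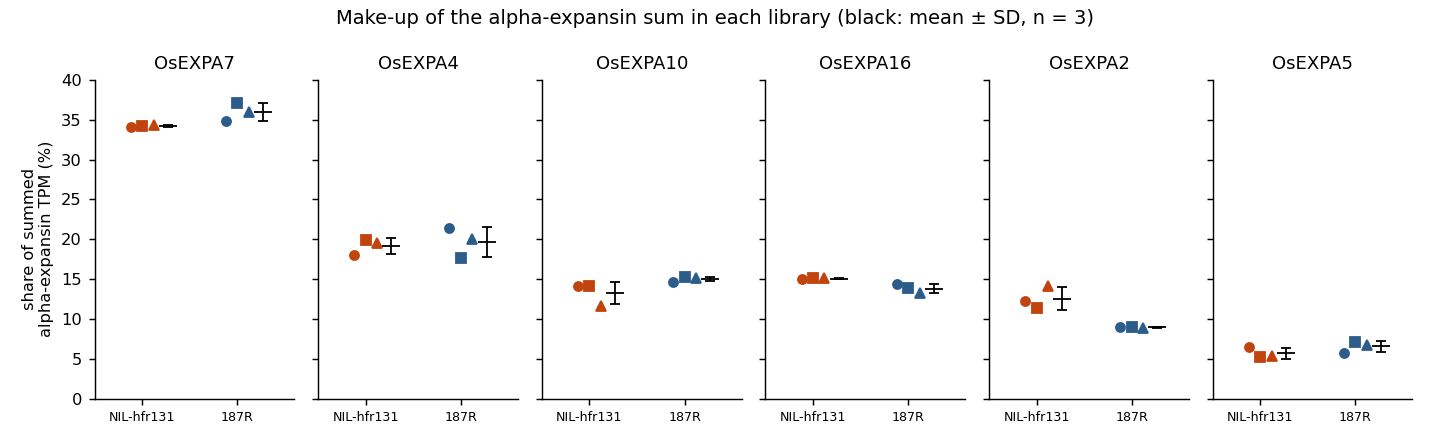
Share of each alpha-expansin in the summed alpha-expansin level of its library, in % (vertical axis from 0), with NIL-*hfr131* in red on the left of each panel, 187R in blue on the right, circles, squares and triangles for replicates 1, 2 and 3, and the mean ± SD of 3 libraries in black. *OsEXPA2* has 11.3% to 14.1% in NIL-*hfr131* and 8.87% to 9.02% in 187R, and the shares of one library add up to 100, so a higher share of one gene lowers the others.

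*OsEXPA2* lies on chromosome 1, which also carries *OsBRI1*, and its locus number, which rises along the chromosome, is 8720 above that of *OsBRI1*. The introgressed fragment belongs to the long arm of this chromosome, and whether it reaches *OsEXPA2* was not tested. Of 9 loci within 50 locus numbers of *OsEXPA2*, 7 were tested. Of the 7, 0 passed an adjusted p under 0.05 (limma), beside 0.307% of all tested genes. At an unadjusted p under 0.05, 1 passed, beside 8.36% of all tested genes. The log2 fold changes of the 7 ran from -0.40 to 0.41. *OsEXPA8*, the other gene of the set on this chromosome, has a difference of -37400 from *OsBRI1* in locus number, on the other side of it.

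Another measure that moved with the lines was the summed level of 8 loci of the tapetum and anther wall, again listed from general knowledge. Their sum was 2723 to 3010 TPM in NIL-*hfr131* and 1697 to 1938 TPM in 187R, and 0 of the 8 were at 0. Of the 8, 1 rose at an adjusted p under 0.05, LOC_Os11g37280, with 1380, 1372 and 1211 TPM in NIL-*hfr131* and 414, 440 and 509 TPM in 187R (adjusted p = 0.00695, limma, up to 0.0886 over the alternatives), and the other 7 did not pass. In 2 of the 8 the log2 fold change was negative, down to -0.21 for LOC_Os02g02820 (adjusted p = 0.694, limma). That locus was at 190, 189 and 155 TPM in NIL-*hfr131* and at 197, 199 and 220 TPM in 187R. The summed level of 8 leaf photosynthesis loci was 1073 to 1671 TPM in NIL-*hfr131* and 1515 to 1628 TPM in 187R, with 1 of the 8 at 0 everywhere. Of the 7 tested, 2 were higher in NIL-*hfr131* at the adjusted threshold, beside 0.251% of all tested genes. They were LOC_Os12g19381 and LOC_Os12g19470 (adjusted p = 0.0154 and 0.0105, limma, each up to 0.12 over the alternatives). The other 5 did not pass, and 3 of the 7 log2 fold changes were negative, down to -0.35 for LOC_Os03g39610, which was at 148, 142 and 89.4 TPM in NIL-*hfr131* and at 159, 154 and 161 TPM in 187R (adjusted p = 0.694, limma). The part of these tissues in the level of *OsEXPA2* was not tested.

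The other alpha-expansins overlapped between the lines. *OsEXPA4*, whose overexpression is known to make rice plants taller, was at 162, 172 and 182 TPM in NIL-*hfr131* replicates 1, 2 and 3 and at 174, 167 and 180.4 TPM in 187R replicates 1, 2 and 3. Its log2 fold change was -0.02, with a 95% interval of -0.26 to 0.22 (adjusted p = 0.948, limma). It was among the steadiest genes of the table, since its residual SD of 0.0707 on the log2 scale was larger than that of only 4.08% of tested genes.

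*OsEXPA7*, known from studies of root growth and salt tolerance, was at 306, 295 and 319.7 TPM in NIL-*hfr131* and at 283, 351 and 324 TPM in 187R. The NIL-*hfr131* values lay inside the range of 187R, and the log2 fold change was -0.05 (95% interval -0.33 to 0.23, adjusted p = 0.853, limma). *OsEXPA16* was at 134, 130.2 and 141 TPM in NIL-*hfr131* and at 117, 131 and 119 TPM in 187R. The lines overlapped only through 187R replicate 2 and NIL-*hfr131* replicate 2, and the log2 fold change was 0.14 (95% interval -0.10 to 0.39, adjusted p = 0.694, limma).

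*OsEXPA10*, known for its induction by aluminium in roots, was at 126, 122 and 108 TPM in NIL-*hfr131* and at 119.5, 144 and 137 TPM in 187R. It was lower in NIL-*hfr131* on average, with an overlap through 187R replicate 1, and its log2 fold change was -0.17 (95% interval -0.45 to 0.12, adjusted p = 0.694, limma). *OsEXPA5* was at 58.4, 45.4 and 49.8 TPM in NIL-*hfr131* and at 47.1, 68.0 and 60.5 TPM in 187R. Its residual SD of 0.228 on the log2 scale was the highest of the 7, with a coefficient of variation of 12.9% in NIL-*hfr131* (15.2% for *OsEXPA2*) and 18.1% in 187R, and its interval was the widest of the 7, from -0.59 to 0.22 around a log2 fold change of -0.18 (adjusted p = 0.70, limma).

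Between them, *OsEXPA16* and *OsEXPA10* changed places from one line to the other, but neither gene passed the test and the lines overlapped in both. In the pattern over the 6 libraries, *OsEXPA10* was closest to *OsEXPA7*, with a root mean square difference of 0.110 on the centred log2 scale. *OsEXPB3*, at 0.144, was also nearest to *OsEXPA10*. The least alike were *OsEXPA2* and *OsEXPA10*, at 0.378, and *OsEXPA2* was closest to *OsEXPA16*, at 0.200. No single library held all the extremes, since NIL-*hfr131* replicate 3 had the highest level of 3 of the 7 genes and the lowest of 2, while 187R replicate 2 had the highest level of another 3 and 187R replicate 1 the lowest of 3.

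**Figure D4:**
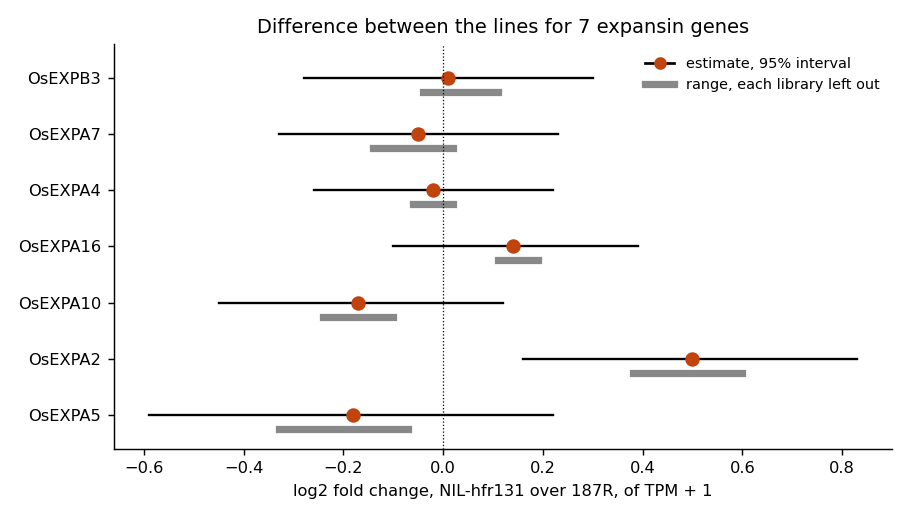
Log2 fold change of NIL-*hfr131* over 187R on the log2(TPM + 1) scale for the 7 tested expansin genes, ordered by level, with the limma estimate (red point), its 95% interval (black line) and the range over the fits without any 1 library (grey bar). The interval of *OsEXPA2*, 0.16 to 0.83, lies above 0 before adjustment for the number of genes, and those of the other 6 genes include 0.

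Of the beta-expansins, *OsEXPB3*, known from elongating internodes of deepwater rice, was at 927, 917 and 755 TPM in NIL-*hfr131* replicates 1, 2 and 3 and at 891, 835 and 847 TPM in 187R replicates 1, 2 and 3. NIL-*hfr131* held both the highest levels and the lowest one, which was in replicate 3. The log2 fold change was 0.01, with a 95% interval of -0.28 to 0.30 (adjusted p = 0.978, limma). Leaving out NIL-*hfr131* replicate 3 gave 0.11 (adjusted p = 0.646, limma). The sign is not fixed by these data, nor is that of *OsEXPA4* or *OsEXPA7*, since each turned under some of the alternatives.

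*OsEXPB2*, a beta-expansin known from root development, was listed at 0 in all 3 NIL-*hfr131* libraries and in 187R replicates 1 and 3, and at 0.164 TPM in 187R replicate 2. LOC_Os03g01610 was listed at 0.0138, 0.0151 and 0 TPM in NIL-*hfr131* and at 0, 0.0296 and 0 TPM in 187R. *OsEXPA8*, known for effects on root growth when overexpressed, was listed at 0 in all 6 libraries. These 3 genes were not tested, and a difference between the lines at such levels could not be measured without the depth.

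In the RefSeq table, *EXPB6*, *EXPB2*, *EXPB3* and *EXPB4* stand next to each other on chromosome 10 with 0 other genes between them. In the deposited values the loci on either side of *OsEXPB2* and *OsEXPB3* were also expressed. LOC_Os10g40700 was at 65.5, 66.0 and 59.0 TPM in NIL-*hfr131* and at 86.0, 71.7 and 77.7 TPM in 187R. LOC_Os10g40730 was at 355, 339.7 and 340.1 TPM in NIL-*hfr131* and at 356, 362 and 342 TPM in 187R. *OsEXPB2* was thus the only 1 of these 4 loci at or near 0, in both lines. How reads that match more than one copy were handled is not given in the sources used here, so the division of reads among neighbouring expansin genes is uncertain.

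**Figure D5:**
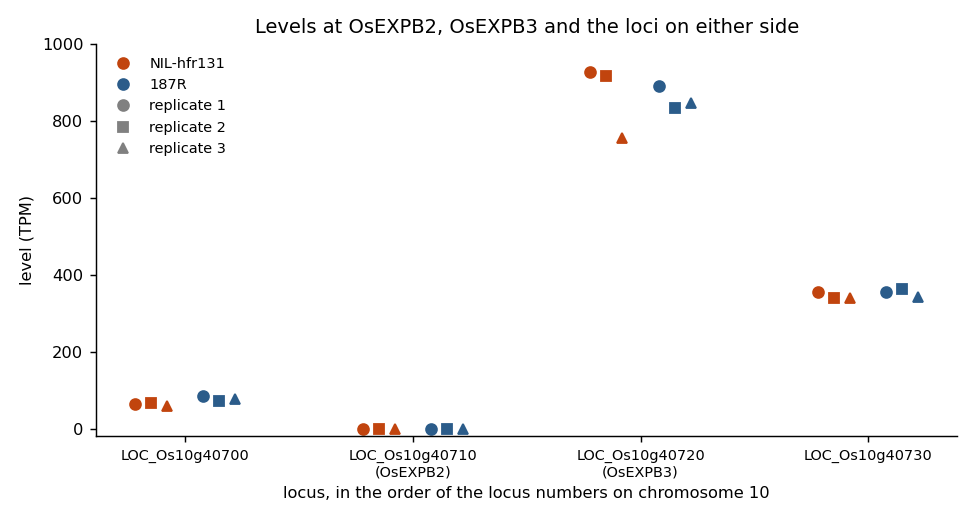
Level in TPM at 4 neighbouring loci of chromosome 10, in the order of their locus numbers, with NIL-*hfr131* in red, 187R in blue and a marker shape per replicate. *OsEXPB3* lies between 755 and 927 TPM, LOC_Os10g40730 between 340 and 362 TPM, LOC_Os10g40700 between 59.0 and 86.0 TPM, and *OsEXPB2* at or near 0.

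A further 18 loci, taken as expansin loci from general knowledge and not named in the table, were read as well. Of these, 6 were at 0 in every library and 7 were tested. Of the 7, 0 passed an adjusted p under 0.05 (limma), beside 0.307% of all tested genes. In 6 of the 7 the log2 fold change was negative, whereas over the 21531 tested genes 9129 were negative and 12402 positive. The median was -0.24 beside 0.05 over all tested genes. At an unadjusted p under 0.05, 1 was higher and 2 were lower in NIL-*hfr131*, where 4.05% of all tested genes were higher and 4.31% lower. The lower ones were LOC_Os10g40700 (log2 fold change -0.30, adjusted p = 0.566, limma) and LOC_Os03g01270 (log2 fold change -0.67, adjusted p = 0.585, limma), whose log2 fold change was -0.41 without NIL-*hfr131* replicate 3. The higher one, LOC_Os04g15840, had a low level, with means of 1.74 ± 0.739 TPM for NIL-*hfr131* and 0.781 ± 0.109 TPM for 187R (SD, n = 3). The 18 loci summed to 486 to 548 TPM in NIL-*hfr131* libraries and 557 to 602 TPM in 187R libraries. These ranges do not overlap, but the difference in the sum was not tested. Most of that sum came from LOC_Os10g40730, in which the lines overlapped. The means of LOC_Os10g40730 were 345 TPM in NIL-*hfr131* and 354 TPM in 187R. Means were also lower in NIL-*hfr131* for LOC_Os03g01270 (42.7 TPM, against 67.0 TPM in 187R) and LOC_Os10g40700 (63.5 TPM, against 78.5 TPM in 187R). The same held for LOC_Os03g21820 (24.2 TPM, against 32.3 TPM in 187R) and LOC_Os02g44108 (36.5 TPM, against 43.1 TPM in 187R). LOC_Os03g21820 and LOC_Os02g44108 did not pass (adjusted p = 0.637 and 0.60, limma).

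The BR genes *OsBRI1*, *D2*, *D11* and *BRD1*, the receptor gene and 3 genes of BR synthesis, were also read. All 4 log2 fold changes were positive, between 0.40 and 1.02. Of the 4, 0 passed an adjusted p under 0.05 (limma), beside 0.307% of all tested genes, and *D11* had the lowest, at 0.0655. Without adjustment 3 passed, all higher in NIL-*hfr131*, beside 4.05% of all tested genes. Without NIL-*hfr131* replicate 3 the count at the adjusted threshold was 1, *D11*, where 1.80% of all tested genes passed. Without that library the log2 fold changes were smaller, at 0.15 for *OsBRI1*, 0.32 for *D2*, 0.88 for *D11* and 0.38 for *BRD1*. The study reported *D2*, *D11* and *BRD1* as raised in these same libraries. It found *OsBRI1* by mapping and measured its expression by quantitative PCR in stem and leaf. In both of these tissues, which differ from the panicles used here, it reported a higher level in NIL-*hfr131*. All 4 were listed here with earlier results of these data known, so their direction is not independent evidence. With all libraries, the log2 fold change of *OsEXPA2* (0.50) lay within the range of these 4 genes. Those of the other 6 expansin genes, from -0.18 to 0.14, lay below it.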

How the data were processed

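RNA from young panicles was copied into cDNA and sequenced on an MGISEQ-2000 platform by the authors, who deposited TPM values for 42189 genes in 6 libraries. The aligner, genome build, annotation and read filters are not given in the sources used here. The methods name FPKM, but each deposited column summed to 1000000 and was used as TPM, which keeps no depth. All columns were used (0 were left out), and lines and replicates were taken from the labels.

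From these values, log2(TPM + 1) of the 21531 genes with a mean of at least 1 TPM was compared between the lines with limma 3.58.1 in R 4.3.3 (trend = TRUE), with Benjamini-Hochberg adjustment over all tested genes and a threshold of 0.05. The test was tried on simulated data. Summaries and plots used Python 3.11.15, pandas 2.3.3, numpy 2.4.6, scipy 1.17.1 and matplotlib 3.10.9. The fits were repeated with a pseudocount of 0.1, without the filter, with a minimum mean of 5 TPM, after quantile normalization, after scaling by median-of-ratios factors, with a prior variance that is constant over genes, with the replicate number as a block, and without each library. Whether the libraries came from separate plants is not given in the sources used here, so p-values measure only the spread between these libraries. The members and lists were chosen with earlier results of these data known. All 10 expansin genes are described, whatever their values. Of the other lists, not every locus is named. Apart from the BR genes, named loci passed a threshold, lay beside *OsEXPB2* or *OsEXPB3*, or were picked by their values.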

Additional observations from a re-analysis of the deposited data

How the results depend on the processing

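Under each of the 13 alternatives, 0 of the tested expansin genes and 0 of the further expansin loci passed an adjusted p under 0.05 (limma), and the median log2 fold change of the expansin genes moved by less than its spread between libraries. *OsEXPA2*, *OsEXPA5*, *OsEXPA10* and *OsEXPA16* kept their direction under all 13. The sign turned for *OsEXPA7* with quantile normalization (0.016) and for *OsEXPB3* with median-of-ratios factors (-0.035). With any 1 library left out, *OsEXPA4* ranged from -0.059 to 0.024, *OsEXPA7* from -0.14 to 0.018 and *OsEXPB3* from -0.043 to 0.11, and the cause was not tested. The number of genes past the threshold was 66 of 21531, with 13 to 384 when each library was left out, the highest without NIL-*hfr131* replicate 3. With the replicate number as a block it was 16. Deviations of same-numbered libraries of the lines had correlations of -0.212, 0.060 and 0.090 for numbers 1, 2 and 3. Those of libraries with different numbers ran from -0.232 to 0.316. Whether same-numbered libraries were handled together is not given in the sources used here. TPM keeps no depth, so counting error is unknown, and the 3 genes near 0 allow no comparison.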

Other observations

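In all, 76 loci lie within 50 locus numbers of 1 of the 10 expansin genes, and 48 of them were tested. Of the 48, 0 passed an adjusted p under 0.05 (limma), beside 0.307% of all tested genes. At an unadjusted p under 0.05, 6 passed, beside 8.36% of all tested genes. Without NIL-*hfr131* replicate 3, 2 of these loci passed the adjusted threshold, beside 1.80% of all tested genes. These 2 are named after their values were seen. LOC_Os05g40010, which lies 20 locus numbers above *OsEXPA4*, was at 95.6, 66.8 and 33.2 TPM in NIL-*hfr131* replicates 1, 2 and 3 and at 26.2, 41.6 and 32.9 TPM in 187R, with a log2 fold change of 1.25 without that library (adjusted p = 0.0360, limma) and 0.84 with it (adjusted p = 0.633, limma). LOC_Os03g60760, near *OsEXPA7*, averaged 20.1 TPM in NIL-*hfr131* and 10.5 TPM in 187R, and its adjusted p was 0.0462 without that library and 0.417 with it (limma).

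By the mean over all 6 libraries, the highest level among these neighbours was that of LOC_Os01g14670, which lies 20 locus numbers above *OsEXPA8*. It averaged 1784 TPM in NIL-*hfr131* and 1468 TPM in 187R, a log2 fold change of 0.28 (adjusted p = 0.680, limma), while *OsEXPA8* was listed at 0 in all 6 libraries. In 187R alone, LOC_Os01g60740, near *OsEXPA2*, was higher, and it averaged 1326 TPM in NIL-*hfr131* and 1723 TPM in 187R, a log2 fold change of -0.40 (adjusted p = 0.637, limma).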
